A study of Mus musculus with 6 samples.

Results

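The genes described here are 36 cyclins, cyclin-dependent kinases (CDKs) and regulators of mitotic entry and exit, taken by name from a list. The list was chosen with earlier results of these data known, so its counts are described without a set test. Of the 36 genes, 35 were measured among 19938 genes on the arrays. Ccnb1, which encodes cyclin B1, had no probe set with its symbol in the platform annotation used and was not analysed here. The comparison sets 3 mouse osteosarcoma cell lines against 3 cultures of differentiated KUSA4b10 osteoblasts. Each sample was hybridised to its own array of the Affymetrix Mouse Gene ST type, 6 in all. The lines OS_493H, OS_494H and OS_716H were derived from primary tumours of Osx-Cre+ mice on the C57Bl6 background, with both rb and p53 fl/fl. In these mice Cre is driven by the promoter of Osterix (Sp7), a gene of the osteoblast lineage. The tumours lay in the hip (a female and a male) and the tibia (a female), at ages labelled 188, 190 and 226 without a unit. KUSA4b10, labelled with the same strain, is a single mouse stromal line. It was given 50 ug/ml ascorbate for 21 days, counted from full confluence, and its 3 samples are called cultures 1 to 3. The titles also number the cultures Ex1 to Ex3, which does not settle whether they were grown separately, so the spread between them may be technical. The extraction text speaks of homogenised tissue, although the labels give cell lines for all samples. The labels name no differentiation step for the lines, so tumour origin and growth state cannot be told apart in any difference below.

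Progress through the cell cycle is driven by CDKs that are active only when bound to a cyclin. D-type cyclins with Cdk4 and Cdk6 act in G1 and phosphorylate Rb, E-type cyclins with Cdk2 act at the entry into S phase, and cyclins A and B with Cdk1 act in G2 and mitosis. Most mitotic genes are transcribed late in the cycle by the MuvB complex, which contains Lin9, together with Mybl2 and Foxm1. In resting cells the same complex represses them together with the Rb relatives. It reaches many of them through a promoter element called the CHR (cell cycle genes homology region), often beside CCAAT boxes bound by NF-Y, whereas genes of the G1/S transition more often carry E2F sites.

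The promoters are shown first because 12 of the listed genes hold letters of both the CHR and CCAAT there, and others hold neither. RefSeq promoter windows of GRCm38.p6, from 250 bases before to 50 after the start, were matched by symbol for 24 of the 36 genes (25 windows, as Ccnd3 has 2). The letters searched on both strands were TTTGAA and TTCGAA for the CHR, CCAAT, and TTTCCCGC, TTTGGCGC, TTTCGCGC, TTTGCCGC, TTCCCGCC and TTGGCGCC as E2F-like. TTCGAA reads the same on both strands, and TTTGGCGC and TTGGCGCC can overlap. The 200 bases before the start are printed for 4 mitotic genes with a CHR match, for the G1/S phosphatase gene Cdc25a and for Cdk4, which lacks all these letters in its window. All are 5′ to 3′ on the gene's own strand, and capitals mark every match of the CHR, CCAAT or E2F-like letters, with ATTGG as CCAAT and TTCAAA as TTTGAA on the opposite strand.
Cdk1 at chr10:69352913-69353112, minus strand: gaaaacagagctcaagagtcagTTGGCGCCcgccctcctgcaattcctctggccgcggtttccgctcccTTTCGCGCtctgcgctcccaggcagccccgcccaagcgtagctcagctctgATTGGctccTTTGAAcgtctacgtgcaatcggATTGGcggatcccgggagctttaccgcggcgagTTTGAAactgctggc
Cdc20 at chr4:118437344-118437543, minus strand: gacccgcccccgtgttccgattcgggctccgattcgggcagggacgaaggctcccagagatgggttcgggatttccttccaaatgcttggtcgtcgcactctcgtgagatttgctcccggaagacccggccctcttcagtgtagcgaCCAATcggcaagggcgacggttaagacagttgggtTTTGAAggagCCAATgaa
Top2a at chr11:99024190-99024389, minus strand: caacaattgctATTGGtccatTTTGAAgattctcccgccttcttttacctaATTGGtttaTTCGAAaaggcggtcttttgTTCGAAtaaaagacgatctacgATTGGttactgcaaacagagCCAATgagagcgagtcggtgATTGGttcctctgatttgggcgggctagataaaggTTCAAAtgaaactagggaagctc
Mki67 at chr7:135716380-135716579, minus strand: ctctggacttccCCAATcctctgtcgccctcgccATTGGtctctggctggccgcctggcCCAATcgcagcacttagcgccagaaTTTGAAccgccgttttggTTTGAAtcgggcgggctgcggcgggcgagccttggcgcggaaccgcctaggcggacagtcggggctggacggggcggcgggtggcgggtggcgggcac
Cdc25a at chr9:109875379-109875578, plus strand: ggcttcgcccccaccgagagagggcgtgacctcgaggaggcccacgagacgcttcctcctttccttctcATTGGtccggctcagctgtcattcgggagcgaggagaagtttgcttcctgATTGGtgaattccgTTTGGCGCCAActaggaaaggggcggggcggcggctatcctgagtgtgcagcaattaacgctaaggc
Cdk4 at chr10:127063335-127063534, plus strand: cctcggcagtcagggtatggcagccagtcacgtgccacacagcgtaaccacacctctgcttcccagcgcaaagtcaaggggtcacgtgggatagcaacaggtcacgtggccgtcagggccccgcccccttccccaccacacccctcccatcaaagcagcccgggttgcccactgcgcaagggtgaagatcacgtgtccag

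Windows on chromosome 18, or not of full length, were left out before matching and counting, so an unmatched gene need not lack a promoter entry. Letters of the CHR lay in 12 of the 25 windows (48%), against 19.2% of all 32851 windows kept. Each of the 12 also held CCAAT, and 7.52% of all windows held both. CCAAT lay in 18 (72%, against 37.4%) and an E2F-like match in 4 (16%, against 4.45%). The CHR windows belong to Cdk1, Ccnb2, Ccnf, Cdc25b, Plk1, Aurka, Cdc20, Ube2c, Fbxo5, Cdkn3, Mki67 and Top2a. The E2F-like windows belong to Cdc25a, Cdk2, Cdk1 and Ccnb1. A match describes the letters and does not show that a factor binds there. Likewise, a window without these exact letters does not show that no factor binds.

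Before the results, the labels were checked on the arrays. Rb1 lay at 9.26, 9.70 and 9.87 in OS_493H, OS_494H and OS_716H and at 10.68, 10.66 and 10.66 in cultures 1 to 3 (log2 difference -1.05 ± 0.15 SE, limma adjusted p = 0.00427). Which exons its probes cover was not checked, so this value need not measure the deleted part. The array of OS_716H, labelled female, carried Y-linked transcripts (Eif2s3y 10.11, against 9.96 in the male line and 4.08 in OS_493H) and little Xist (5.50, against 12.62 in OS_493H), so it goes against its labelled sex. Without this array Ccnd3 and Cdk6 were the listed genes whose call changed, as given below, and changed calls in the other lists are given with those lists. Osteoblast markers were present in the cultures (mean over 6 measured markers 11.59 to 12.35) and lower in the lines (8.67 to 9.36), where 3 of the 6 fell and Col1a1 stayed high at a mean of 13.25. Without OS_716H Alpl also fell (-2.19, adjusted p = 0.0183, against 0.224 with all arrays). All 9 measured adipocyte markers also fell in the lines. Their mean level was 11.09 to 11.88 in the cultures and 7.81 to 8.25 in the lines, with Adipoq at 5.93 in the lines, under the median of all values (7.53). The 8 macrophage and osteoclast, 5 endothelial and 5 muscle markers had median differences of -0.03, 0.01 and -0.02, with 1 member each way, none, and 1 higher member called. The part of these cell states in the differences below was not tested, and in bulk RNA fewer cells of a type cannot be told apart from less RNA per cell.

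Genes of S phase and mitosis were higher in all 3 lines than in all 3 cultures, while the D-type cyclins and their kinases were not called. Of the 35 measured genes, 27 rose and none fell in the lines (limma, adjusted p under 0.05 by the Benjamini-Hochberg method across 19938 genes), where 13.2% of all genes rose and 11.4% fell. The lines lay above the cultures without overlap for 29 of the 35, against 20.5% of all genes. The median log2 difference, lines minus cultures, was 1.54 over the 35 genes and -0.02 over all genes. The differences ranged from -0.25 for Ccnd1 to 2.74 for Cdkn3. The 8 genes that did not pass were Ccnd1, Ccnd2, Ccnd3, Cdk4, Cdk6, Wee1, Ccnh and Cdk5. Of the 27 calls, 24 were kept when any 1 array was left out. Those of Ccna1, Fzr1 and Cdk7 were lost without culture 1 or culture 3 (adjusted p from 0.0535 to 0.0687).

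**Figure D1:**
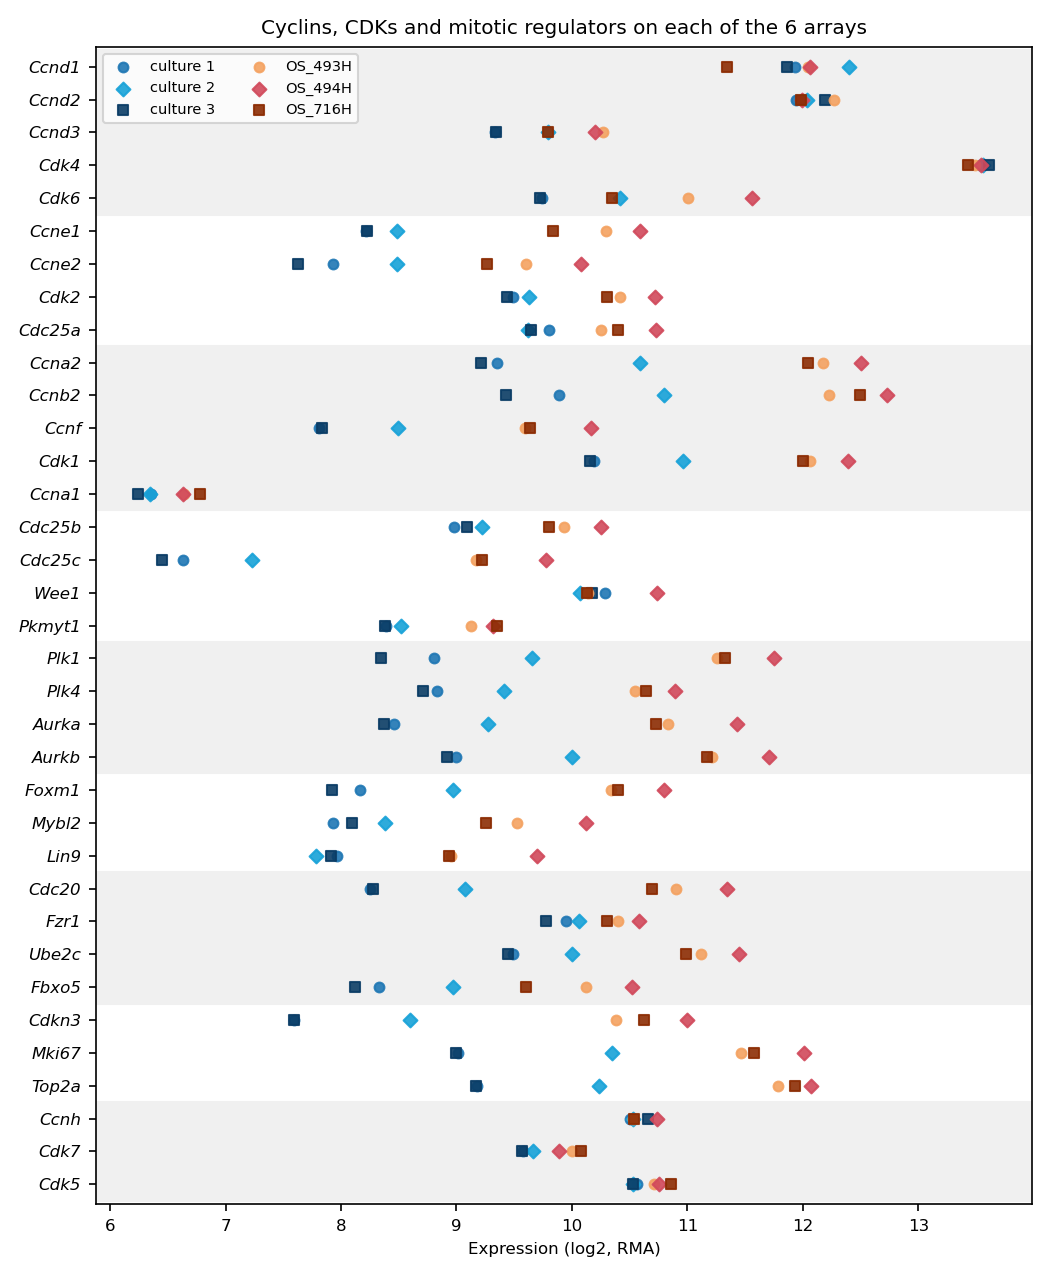
Expression (log2, RMA) of the 35 measured genes on each array, in order of cell cycle role with grey and white bands for the roles. Blue symbols are the 3 osteoblast cultures and orange, red and brown symbols the 3 osteosarcoma lines. From Ccne1 down to Top2a the lines lie to the right of the cultures for every gene except Wee1, and culture 2 often lies between the other 2 cultures and the lines.

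In G1, none of the 5 genes passed the test. Cyclin D1, the growth factor-induced partner of Cdk4 and Cdk6, had Ccnd1 at 12.05, 12.06 and 11.35 in OS_493H, OS_494H and OS_716H and at 11.93, 12.40 and 11.87 in cultures 1 to 3. The groups overlapped, with OS_716H lowest and culture 2 highest, and the difference was -0.25 (95% interval -0.81 to 0.32, adjusted p = 0.523). Ccnd2 lay at 12.27, 11.99 and 11.98 in the lines, against 11.94, 12.03 and 12.19 in the cultures, a difference of 0.02 (interval -0.24 to 0.29). Cdk4, the G1 kinase, lay at 13.49, 13.54 and 13.43 against 13.54, 13.56 and 13.62. Its difference of -0.08 had an interval of -0.25 to 0.08, the narrowest of the 5.

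Ccnd3 and Cdk6 leaned towards the lines without passing. Ccnd3, the third D-type cyclin, lay at 10.27, 10.20 and 9.79 in the lines, against 9.33, 9.79 and 9.34 in the cultures, so that OS_716H and culture 2 nearly touched. Its difference of 0.60 ± 0.18 (SE) had an adjusted p of 0.0505. Ccnd3 passed under 6 of 16 alternative settings, with a lowest adjusted p of 0.00991. These included quantile normalisation (0.0467), median centring (0.0376) and the fits without OS_716H (0.0236) and without culture 2 (0.0285). Cdk6 lay at 11.00, 11.56 and 10.35 in the lines, against 9.74, 10.41 and 9.72 in the cultures, with culture 2 above OS_716H. Its difference was 1.01 ± 0.33 (SE, adjusted p = 0.0705), and without OS_716H it was 1.32 (adjusted p = 0.021). Cdk6 passed under 2 of 16 alternative settings, with a lowest adjusted p of 0.0133.

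At the G1/S transition all 4 genes rose. Cyclin E1, which activates Cdk2 at the start of S phase, had Ccne1 at 10.30, 10.59 and 9.84 in the lines, against 8.21, 8.49 and 8.22 in the cultures. The groups lay more than 1 log2 unit apart, a 3.82-fold rise (1.93 ± 0.19 SE, adjusted p = 0.00136). Ccne2, the second E-type cyclin, lay at 9.60, 10.08 and 9.26 against 7.93, 8.48 and 7.62, a 3.11-fold rise (adjusted p = 0.00698). Cdk2 itself rose 1.94-fold, at 10.42, 10.72 and 10.30 against 9.49, 9.63 and 9.44. Cdc25a, the phosphatase that removes inhibitory phosphates from Cdk2, rose 1.71-fold (0.77 ± 0.13 SE, adjusted p = 0.00765), and here culture 1 (9.81) and not culture 2 (9.62) was the highest culture.

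Among the cyclins and the kinase of S, G2 and M phase, 5 of 5 measured genes rose. Ccna2, the cyclin A of dividing body cells, lay at 12.17, 12.50 and 12.05 in the lines, against 9.35, 10.59 and 9.22 in the cultures. The lines lay within 0.46 of each other, and culture 2 stood well above its 2 neighbours. The rise was 5.74-fold (2.52 ± 0.36 SE, adjusted p = 0.00388). Ccnb2, which encodes cyclin B2, lay at 12.23, 12.73 and 12.50 against 9.89, 10.80 and 9.43, a 5.46-fold rise (adjusted p = 0.00348). Cdk1, the kinase that drives mitotic entry, lay at 12.06, 12.39 and 12.00 against 10.19, 10.96 and 10.16. It rose 3.29-fold (1.72 ± 0.23 SE, adjusted p = 0.00329), and its promoter printed above holds 2 CHR matches. Ccnf, the F-box cyclin of an SCF ubiquitin ligase, rose 3.36-fold. Ccna1, a cyclin of the germ line, rose only 1.29-fold from a mean of 6.31 to 6.69, both under the median of all values.

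Of the 4 regulators of Cdk1 phosphorylation, 3 rose and Wee1 did not pass. Cdc25c, a phosphatase that activates Cdk1 at mitotic entry, lay at 9.17, 9.78 and 9.22 in the lines, against 6.63, 7.23 and 6.45 in the cultures. Its 6.16-fold rise (2.62 ± 0.25 SE, adjusted p = 0.00114) was the second largest of the 35. Cdc25b, a relative that acts early in mitotic entry, rose 1.86-fold. The inhibitory kinases acting against these phosphatases differed from each other. Pkmyt1, the membrane-bound kinase, lay at 9.13, 9.32 and 9.35 against 8.39, 8.52 and 8.38, a 1.78-fold rise (adjusted p = 0.0016). Wee1, the nuclear kinase, lay at 10.14, 10.74 and 10.13 against 10.29, 10.07 and 10.17. Only OS_494H stood above the cultures, and the difference was 0.16 (interval -0.26 to 0.58, adjusted p = 0.585).

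**Figure D2:**
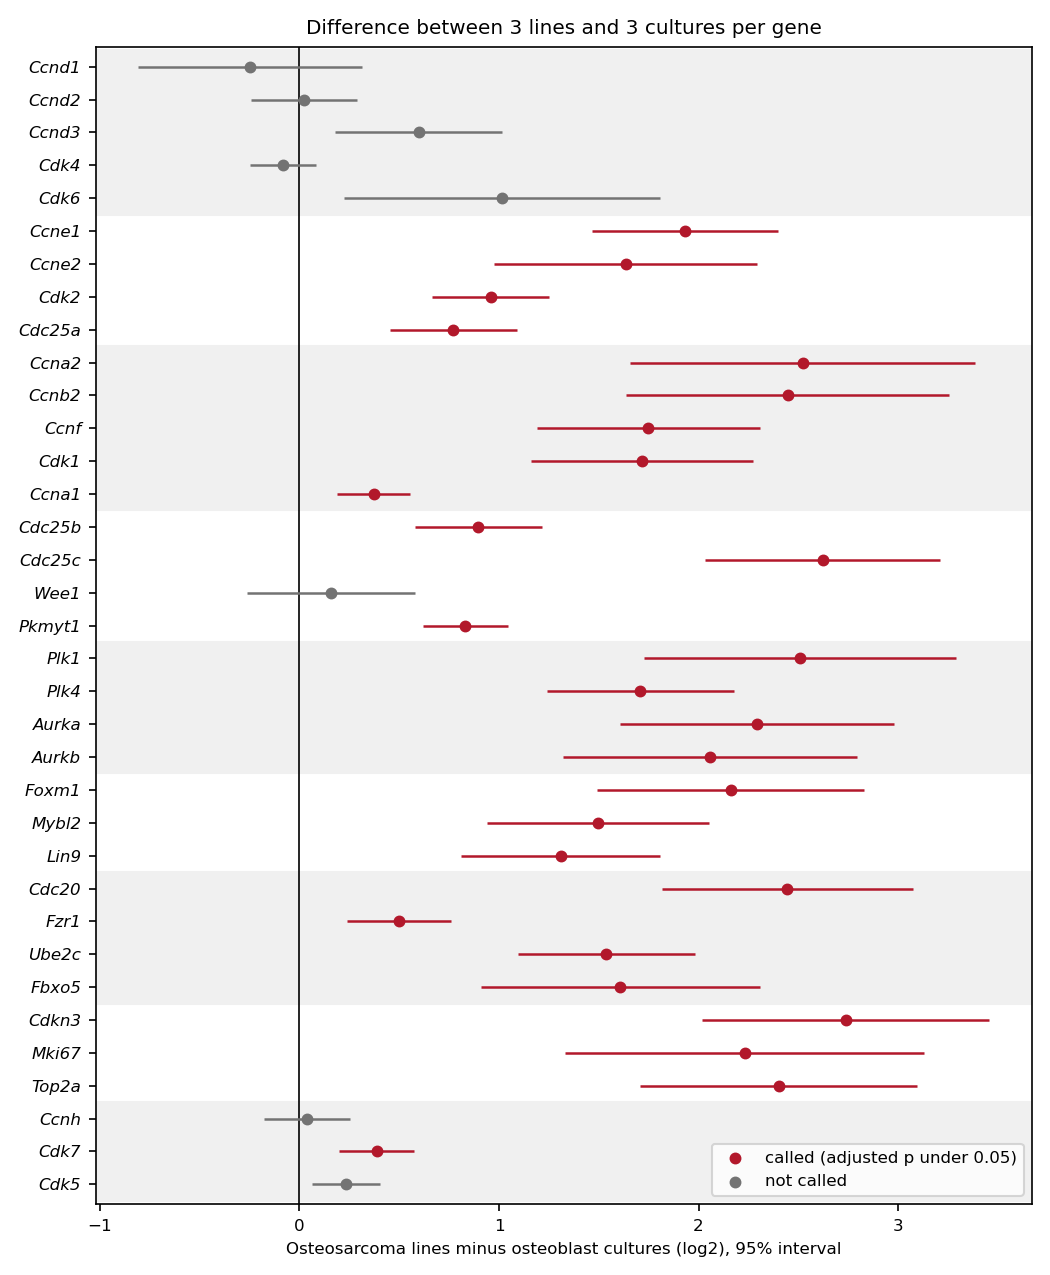
Difference between the mean of the 3 osteosarcoma lines and the mean of the 3 osteoblast cultures (log2) for each gene, with its 95% interval from limma. Red marks the 27 genes called at an adjusted p under 0.05 and grey the 8 that were not, which include all 5 G1 genes at the top.

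The Polo-like and Aurora kinases all rose, with a median difference of 2.17. Plk1, which promotes mitotic entry and spindle assembly, lay at 11.26, 11.75 and 11.33 in the lines, against 8.81, 9.65 and 8.35 in the cultures, a 5.70-fold rise (2.51 ± 0.33 SE, adjusted p = 0.00285). Aurka, the kinase of the spindle poles, lay at 10.83, 11.43 and 10.72 against 8.46, 9.27 and 8.38, a 4.90-fold rise (adjusted p = 0.00253). Aurkb, the kinase of the chromosomal passenger complex, lay at 11.21, 11.70 and 11.17 against 9.00, 10.00 and 8.91, a 4.16-fold rise. Plk4, which starts centriole duplication, rose 3.27-fold, and its promoter window held no CHR, CCAAT or E2F-like letters. For each of the 4 kinases OS_494H was the highest line and culture 2 the highest culture.

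The 3 regulators of mitotic transcription rose too. Foxm1, a forkhead factor for genes of G2 and M phase, lay at 10.34, 10.80 and 10.40 in the lines, against 8.16, 8.97 and 7.92 in the cultures, a 4.47-fold rise (2.16 ± 0.28 SE, adjusted p = 0.0028). Mybl2, the B-Myb factor that joins MuvB in S phase, lay at 9.52, 10.12 and 9.26 against 7.93, 8.38 and 8.10, a 2.82-fold rise (adjusted p = 0.00523). Lin9, a core MuvB subunit, lay at 8.95, 9.70 and 8.94 against 7.97, 7.78 and 7.91, a 2.48-fold rise (1.31 ± 0.21 SE, adjusted p = 0.00582). The cultures of Lin9 spread by little (SD 0.09), and culture 2 was the lowest of them, unlike for Foxm1 and Mybl2.

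Regulators of the anaphase promoting complex (APC/C), the ubiquitin ligase that ends mitosis, rose in 4 of 4 cases but by unequal amounts. Cdc20, its mitotic activator, lay at 10.90, 11.34 and 10.70 in the lines, against 8.25, 9.07 and 8.28 in the cultures, a 5.45-fold rise (2.45 ± 0.26 SE, adjusted p = 0.0016). Fzr1, which encodes the activator Cdh1 of late mitosis and G1, lay at 10.40, 10.58 and 10.30 against 9.95, 10.06 and 9.78. This was a 1.41-fold rise (0.50 ± 0.11 SE, adjusted p = 0.0184). The 95% intervals of the 2 activators, 1.81 to 3.08 for Cdc20 and 0.24 to 0.76 for Fzr1, did not overlap, although the difference between the genes was not tested. Ube2c, the ubiquitin-conjugating enzyme of the complex, rose 2.91-fold. Fbxo5, which encodes the inhibitor Emi1, rose 3.05-fold and spread over the lines by 0.92, from 9.60 in OS_716H to 10.52 in OS_494H.

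The 3 other genes, often read as marks of proliferation, rose by 4.70- to 6.67-fold. Cdkn3, a phosphatase that acts on CDKs, lay at 10.38, 10.99 and 10.62 in the lines, against 7.59, 8.60 and 7.60 in the cultures. Mki67, which encodes the Ki-67 antigen, lay at 11.46, 12.01 and 11.57 against 9.01, 10.34 and 8.99 (2.23 ± 0.38 SE, adjusted p = 0.00699). Top2a, the topoisomerase that separates sister chromatids, lay at 11.78, 12.07 and 11.93 against 9.18, 10.24 and 9.17 (2.40 ± 0.29 SE, adjusted p = 0.00228). A dimmer probe set of Top2a gave a smaller difference of 1.02 (adjusted p = 0.0515), from values of 4.35 to 6.37. In all 3 genes cultures 1 and 3 differed by less than 0.02 and culture 2 stood above both.

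The CDK-activating kinase and Cdk5 changed little. Cdk7, the kinase that phosphorylates the activating loop of CDKs, rose 1.31-fold (0.39 ± 0.08 SE, adjusted p = 0.0136), at 10.00, 9.89 and 10.07 in the lines, against 9.58, 9.66 and 9.57 in the cultures. A second, dimmer probe set gave 0.21 and did not pass (adjusted p = 0.353). Its partner cyclin H had Ccnh at 10.53, 10.74 and 10.54 against 10.50, 10.53 and 10.66, a difference of 0.04 (interval -0.18 to 0.25). Cdk5, a kinase known from neurons and not needed for division, lay at 10.71, 10.75 and 10.86 against 10.56, 10.53 and 10.53. All 3 lines lay above all 3 cultures by a small margin (0.23, adjusted p = 0.0574), and median centring brought it past the threshold (0.0206).

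Promoter letters and size of difference can be set side by side for the 23 measured genes with a window. The 12 genes with CHR letters had differences of 0.90 to 2.74, with a median of 2.26, and all were called. The 11 without had differences of -0.08 to 1.93, with a median of 0.77, and 8 were called, among them Ccne1, Plk4 and Mybl2. Measured genes without a window are in neither group, and their differences ran from -0.25 for Ccnd1 to 2.62 for Cdc25c. These are descriptions without a test, since related genes share both letters and timing.

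Culture 2 stood above cultures 1 and 3 for mitotic genes. Its value exceeded the mean of the other 2 cultures by more than 1 log2 unit for 7 of the 35 genes, against 0.602% of all genes, and no listed gene lay that far below. Those 7 were Mki67 (1.34), Ccna2 (1.30), Ccnb2 (1.14), Plk1 (1.07), Top2a (1.07), Aurkb (1.04) and Cdkn3 (1.00). It was the highest culture for 27 of the 35, against 37.5% of all genes, and the median difference was 0.53 over the 35 genes and 0.00 over all genes. Cultures 1 and 3 lay close together, with a median absolute difference of 0.08 both over the 35 genes and over all genes. As 1 array is set against 2 and the contrast was noticed in these data, no test is given.

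The excess of culture 2 differed by role. It had a median of 1.07 for the 3 proliferation genes and 0.95 for the Polo-like and Aurora kinases. The median was 0.78 for the S/G2 and mitotic cyclins with Cdk1 and 0.63 for the APC/C regulators. It was 0.45 for the G1 genes, 0.37 for the transcription regulators and 0.22 for the G1/S genes. For the regulators of Cdk1 phosphorylation it was 0.16, and for Cdk7, cyclin H and Cdk5 -0.01, so the order did not follow the phases. Genes within a role differed too, with 0.71 for Ccne2 at G1/S and 0.04 for Ccna1 among the S/G2 and mitotic cyclins. Among G1 genes the excess was 0.69 for Cdk6, 0.50 for Ccnd1 and 0.45 for Ccnd3, but -0.03 for Ccnd2 and -0.02 for Cdk4. Cdc25a, Wee1 and Lin9 were lower in culture 2, by 0.11 to 0.16 on the log2 scale. Even at its highest, culture 2 remained below every line for all 27 called genes, for instance at 10.34 for Mki67 against 11.46 in the lowest line. The mean of the osteoblast markers was also higher in culture 2 (12.35) than in cultures 1 and 3 (11.83 and 11.59). Of these markers 5 of 6 were highest in culture 2, by 0.26 for Phex to 1.48 for Sp7 over the mean of the other cultures, while Dmp1 was lowest there (10.80, against 11.49 and 11.19). The mean of the adipocyte markers was lower in culture 2 (11.09, against 11.88 and 11.39). Their part in the excess was not tested.

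**Figure D3:**
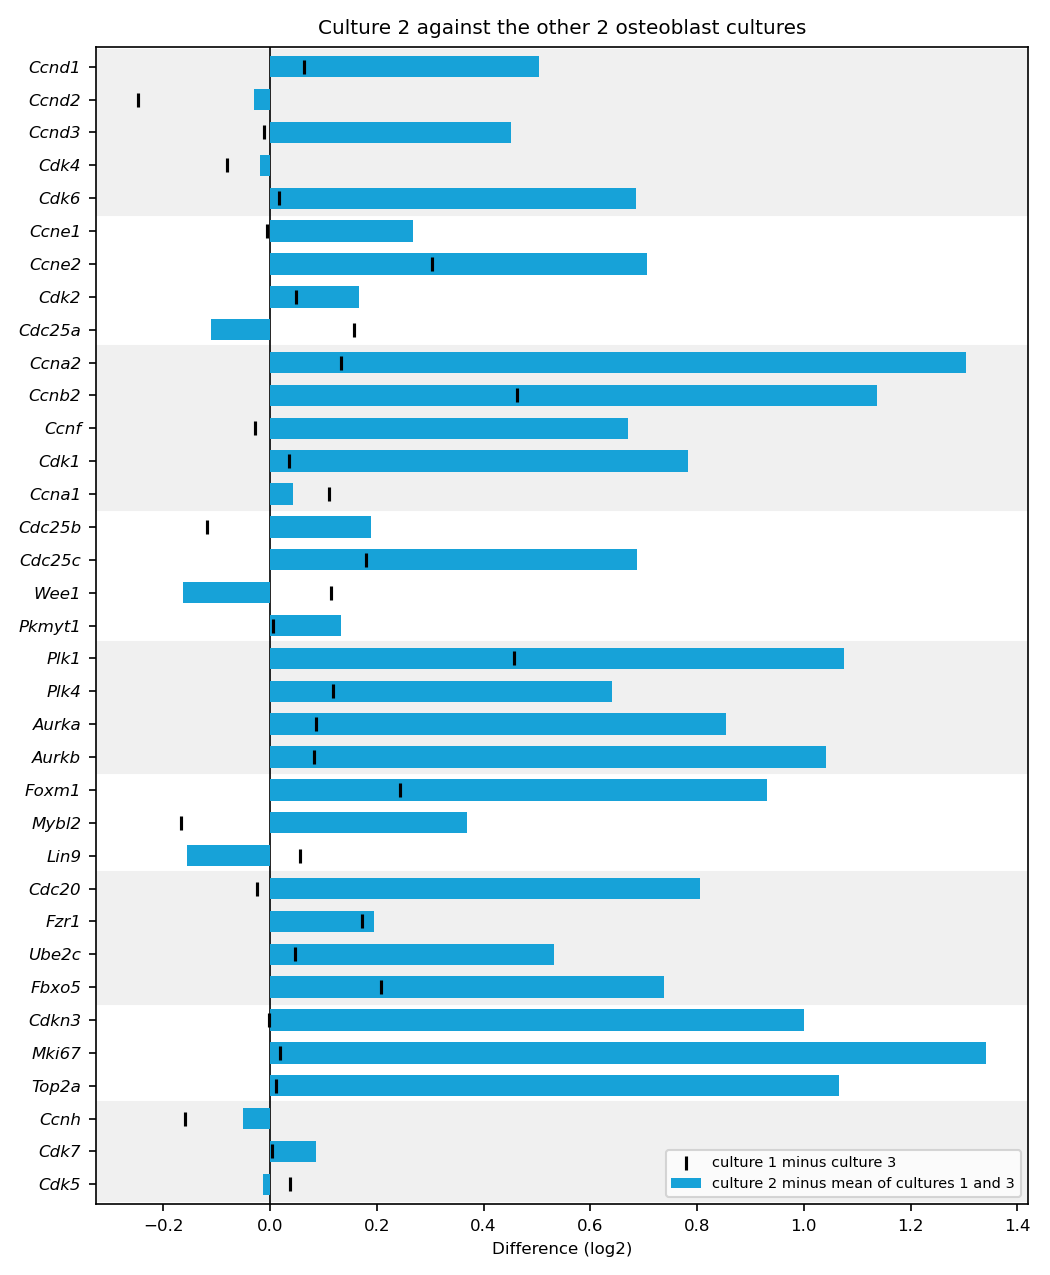
Bars give culture 2 minus the mean of cultures 1 and 3 (log2) for each gene, and black ticks give culture 1 minus culture 3. Bars for Mki67, Ccna2, Ccnb2, Plk1, Top2a, Aurkb and Cdkn3 pass 1, while the ticks of all genes lie between -0.25 and 0.46.

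Among the lines, the same one was highest for most genes, while the lowest line varied. OS_494H was the highest of the 3 lines for 29 of the 35 genes, against 39.9% of all genes, and lay above the mean of OS_493H and OS_716H by a median of 0.39 (0.02 over all genes). OS_716H was the lowest line for 20 of the 35, against 32.8% of all genes. These included all 5 G1 genes and all 4 APC/C regulators. OS_493H was lowest for 13 of the 35, and for 7465 of all 19938 genes. The exceptions to OS_494H as the highest line were Ccnd2 and Ccnd3, highest in OS_493H, and Ccna1, Pkmyt1, Cdk7 and Cdk5, highest in OS_716H. The widest spread over the lines was 1.21 for Cdk6, followed by 0.92 for Fbxo5 and 0.86 for Mybl2, and the narrowest was 0.11 for Cdk4. The median SD was 0.25 over the lines and 0.31 over the cultures for the 35 genes, and 0.13 and 0.09 for all genes. With 1 array per line, a difference between lines has no replicate check.

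**Figure D4:**
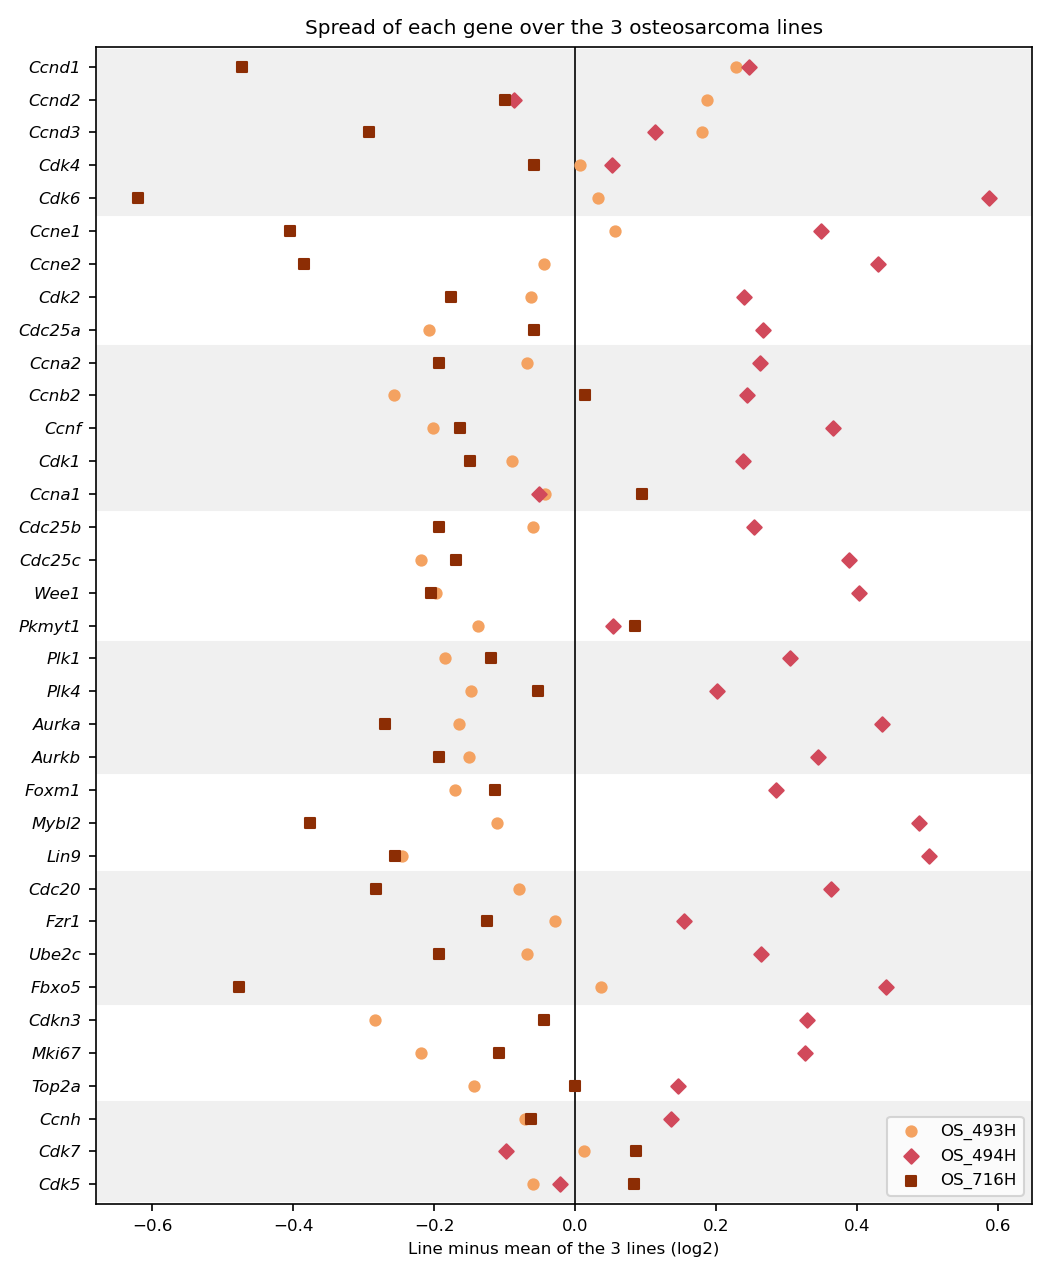
Value of each line minus the mean of the 3 lines (log2) for each gene. OS_494H (red diamonds) lies furthest right for 29 of 35 genes, while OS_716H (brown squares) is furthest left for the 5 G1 genes at the top.

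Other genes of the pathway were taken from 5 lists of cell cycle genes, whose median differences ranged from -0.11 to 2.16. Of 17 partners of CDKs and mitotic helpers, 15 rose and none fell, with a median difference of 2.16. Cdca8 and Birc5, subunits of the chromosomal passenger complex with Aurkb, rose 6.87- and 5.72-fold. Anln and Ect2, which act in cytokinesis, rose 5.63- and 5.49-fold. Ensa and Arpp19, the phosphatase inhibitors switched on by the kinase Mastl, were the 2 that did not pass (0.12 and 0.26), whereas Mastl was among those that rose. After median centring Arpp19 passed as well (adjusted p = 0.028).

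Of the 14 core subunits of the APC/C, 9 rose, 1 fell and 4 did not pass, with a median difference of 0.46. Anapc4 and Cdc26 rose 2.02- and 1.95-fold, and Cdc23 and Anapc13 rose 1.61- and 1.52-fold. Anapc16 fell by 0.38 on the log2 scale, and no longer passed without culture 1 (adjusted p = 0.0736) or culture 3 (0.0532). With culture 1 or culture 3 left out, 6 subunits rose. Without OS_716H 8 rose, as Cdc16 no longer passed (adjusted p = 0.0757, against 0.0318). Cdc16 also missed the threshold after quantile normalisation (0.0659), whereas median centring brought Anapc7 past it (0.0457). Each core subunit differed by less than the activator Cdc20, whose difference was 2.45. The other activator, Fzr1, differed by 0.50, which was less than several core subunits, among them Anapc4 (1.02) and Cdc26 (0.96).

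The 4 MuvB partners of Lin9 went both ways. Rbbp4, a histone-binding protein, rose 1.53-fold, and Lin54, the subunit that contacts the CHR, rose 1.37-fold (adjusted p = 0.0477). Lin52 and Lin37 fell by 0.34 and 0.29. The calls of Lin52 and Lin37 were lost without culture 1, culture 3 or OS_493H, and that of Lin37 also after median centring (adjusted p = 0.0567). The call of Lin54 was lost on leaving out any 1 array except OS_493H.

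The cyclins and CDKs with other functions are set beside all genes, of which 13.2% rose and 11.4% fell, so that few calls among them are no result about these lists. Of 13 transcription cyclins and CDKs with their assembly factor Mnat1, Ccnk alone rose (0.50, adjusted p = 0.0498), and none fell. That call held without OS_716H but not without any other array. Without OS_716H Ccnl1 fell (-0.30, adjusted p = 0.0494, against 0.0536). After median centring Cdk8 rose as well (0.45, adjusted p = 0.0464). Of 15 other cyclins, CDKs and Cdk5 activators, 3 fell and none rose. Ccnj fell by 0.88 (adjusted p = 0.0013). Cdk18 fell by 0.66, a call lost without culture 1, culture 2, culture 3 or OS_493H (adjusted p from 0.0561 to 0.0892). Ccng1 fell by 0.34, a call lost on leaving out any 1 array except OS_493H and after median centring. Under that centring Cdk16 rose (0.31, adjusted p = 0.0267). The median differences of these lists were -0.03 and -0.11, beside -0.02 over all genes.

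**Figure D5:**
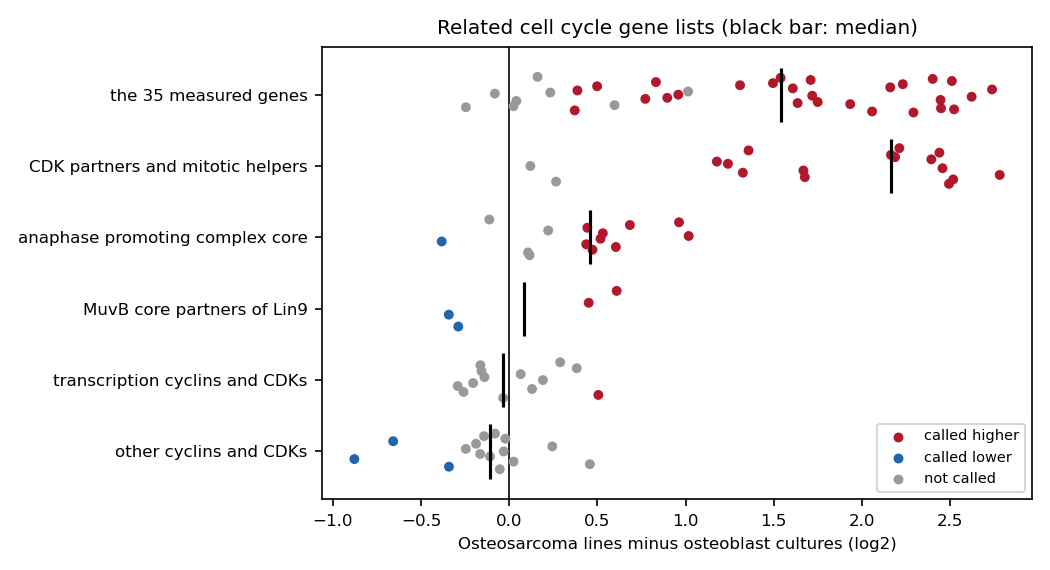
Difference between lines and cultures (log2) for the 35 measured genes and for each gene of the 5 related lists, with the median as a black bar. Red, blue and grey mark genes called higher, called lower and not called. The CDK partners and mitotic helpers have a median of 2.16, and the medians of the 3 lists at the bottom lie between -0.11 and 0.08.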

How the data were processed

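The authors deposited log2 expression values for 35556 probe sets on 6 arrays, for which the submitters' processing notes name RMA and mm9. Which program ran it is not given in the sources used here. The method subtracts background, equalises the distributions of the arrays and summarises each probe set as 1 log2 value. Large differences come out compressed, and no detection call is left. Array medians were 7.45 to 7.58. Of the probe sets, 21789 had 1 gene symbol in the platform annotation, 1621 had several and 12146 were not listed. For each gene the probe set with the highest mean was used, which left 19938 genes.

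Groups came from the sample titles. The fit was lmFit and eBayes of limma 3.58.1 in R 4.3.3, two-sided, without covariates, and calls were made at an adjusted p under 0.05 (Benjamini-Hochberg, across every gene measured). Intervals are 95% from the moderated fit. Genes named beyond the 36 are at most 4 called genes per related list, Rb1, sex-linked and marker genes, and genes named for a changed call, a comparison or a missed threshold. The genes, lists and tests were chosen with earlier results of these data known. On simulated data for this comparison with 19938 genes, the fit recovered 74% of 100 genes changed 2-fold and 92% of 100 changed 4-fold, with 3 false among 169 calls. Other settings tried were median centring, quantile normalisation, leaving out dim genes, an intensity trend, robust moderation, array weights, other choices among probe sets, stricter thresholds and leaving out each array. Precision is limited by having 3 arrays in each group. The 3 cultures are of a single line, so the p-values and intervals do not cover variation between osteoblast sources. Batch was not tested, since neither labels nor values used here name one. Protein motifs were not searched.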

Additional observations from a re-analysis of the deposited data

How the results depend on the processing

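No member reversed its direction with a call under any alternative, and none was called lower. Members called higher numbered 20 (at least a 2-fold change) to 29 (median centring, array weights, and the fit without OS_716H). Of the 27 called genes, 19 kept the call under every alternative run. Leaving out 1 array gave 24 to 29 members called higher and a median difference of 1.39 to 1.72. Over all genes, 2622 were higher and 2274 lower in the main fit, and 1394 and 1072 at an adjusted p under 0.01. With at least a 2-fold change, 811 were higher and 561 lower. Median centring gave 3129 higher and 1800 lower genes, and quantile normalisation 2818 and 2278. Leaving out 1 array gave 1533 to 2796 higher and 1211 to 2314 lower genes, with the fewest without culture 1 (1533 and 1211) and culture 3 (1610 and 1350). Under the other settings the excess of culture 2 had a median of 0.50 to 0.56, with 5 to 7 genes past 1 log2 unit. No paired analysis was possible because the labels pair no culture with a line. Signals under the median of all values, such as Ccna1 and the second Top2a probe set, have no detection call here, so small differences there are the least secure.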
